A study of Mus musculus with 20 samples.

Results

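MEF-alone regions are stretches of chromatin that were accessible in mouse embryonic fibroblasts (MEFs) and had no detectable peak in embryonic stem cells (ESCs) or in any sample of fibroblasts transduced with reprogramming factors. They were defined by merging the ATAC-seq peaks of all 20 libraries that overlapped by at least 1 bp and keeping regions with a MEF peak score of at least 100 and no peak in the other 19 libraries. The score is 10 times the negative base-10 logarithm of the p-value that the peak caller gave. Of 335858 merged regions, 114242 had a MEF peak and 70654 had one with a score of at least 100, and 11714 of these (16.6%, 95% exact interval 16.3% to 16.9%) were MEF-alone regions. The comparison regions below are the 28974 MEF regions of the same score limit that were closed in all 3 ESC libraries and had a peak in at least 1 time-course library, called partly kept regions, and the 25332 that were open in all 3 ESC libraries, called shared regions.

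The libraries came from a study of a designed reprogramming factor. The MEFs carried the OG2 Oct4-GFP reporter and were taken from E13.5 embryos of OG2 males, themselves CBA/CaJ x C57BL/6J, crossed with 129 females, and the ESCs were derived from OG2 mice and kept without feeders in N2B27 medium with 2i and LIF. MEFs received pMXs retroviruses with Oct4 and either native Nanog or NanogN70, in which the N-terminal BRG1-binding part of the BAF subunit SS18 is fused to Nanog, and were sampled on 8 days up to day 12, where day 0 follows 2 rounds of infection. They were grown in iCD3 medium and, after day 7, in N2B27 with 2i and LIF. There was 1 library for MEFs, 3 for ESCs and 1 for each day in each of the 2 paths, so the MEF peaks themselves have no replicate, and no library of cells infected with an empty vector was analysed here. The ESC samples are named ESC in their titles and MEF in their source field. Peaks at the promoters of pluripotency genes were found for 21 to 22 of 22 genes in the ESC libraries and 12 of 22 in MEFs. Of 18 fibroblast identity genes, 16 had a promoter peak in MEFs and 9 to 11 had one in the ESC libraries.

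In differentiated cells most cell type-specific accessible sites are enhancers, which lie within introns or between genes and are held accessible by combinations of transcription factors. In fibroblasts these include the AP-1 dimers of FOS and JUN, the TEAD factors that act with YAP and TAZ, and RUNX factors. Early in reprogramming such sites lose accessibility, while promoters of widely expressed genes and CTCF sites tend to be accessible in fibroblasts and pluripotent cells alike.

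The sequences of 7 MEF-alone regions are given as examples picked by score and motif. Their MEF scores were 590 to 2486, against a median of 153 over MEF-alone regions, so they are not typical of the set. The first 3 had the highest MEF scores, the next 3 were, among regions not already shown, the highest-scoring with a GATA, IRF or FOX match within 25 bp of the summit, and the last one, chosen after its values were seen, was the highest-scoring other region with both an AP-1 (TGANTCA) and a TEAD (GGAATG) match there. Each is the 151 bases centred on the MEF summit, from the plus strand of GRCm38 (mm10), and capitals mark matches on either strand to these motifs (AGATAA for the first and TGTTTAC for FOX) or to those of RUNX (TGTGGTT), CEBP or NFI.
Pcp4 exon, chr16:96525376-96525526: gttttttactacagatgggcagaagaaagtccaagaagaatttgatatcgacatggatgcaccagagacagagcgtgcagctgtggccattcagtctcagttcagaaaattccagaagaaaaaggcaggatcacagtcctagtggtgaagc
Intergenic region nearest to Nox3, chr17:4174021-4174171: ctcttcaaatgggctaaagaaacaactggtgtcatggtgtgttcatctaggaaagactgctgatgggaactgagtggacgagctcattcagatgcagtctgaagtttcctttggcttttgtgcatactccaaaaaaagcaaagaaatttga
Start of Gm29296, nearest to Gas2, chr7:51772521-51772671: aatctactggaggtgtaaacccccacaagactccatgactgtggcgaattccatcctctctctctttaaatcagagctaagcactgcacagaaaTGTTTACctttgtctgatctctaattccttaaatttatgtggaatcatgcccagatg
Intergenic region nearest to Sim1, chr10:51173691-51173841: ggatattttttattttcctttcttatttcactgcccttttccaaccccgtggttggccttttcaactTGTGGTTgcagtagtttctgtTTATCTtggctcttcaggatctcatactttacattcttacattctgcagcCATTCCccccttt
Fam169b intron, chr7:68420932-68421082: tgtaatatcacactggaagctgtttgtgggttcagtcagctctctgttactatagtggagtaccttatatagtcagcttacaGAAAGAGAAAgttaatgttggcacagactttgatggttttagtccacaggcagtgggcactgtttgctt
Intergenic region nearest to Prrx1, chr1:163209262-163209412: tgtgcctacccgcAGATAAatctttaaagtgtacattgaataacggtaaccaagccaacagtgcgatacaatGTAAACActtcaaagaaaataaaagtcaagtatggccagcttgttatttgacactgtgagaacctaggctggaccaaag
Arl15 intron, chr13:114010607-114010757: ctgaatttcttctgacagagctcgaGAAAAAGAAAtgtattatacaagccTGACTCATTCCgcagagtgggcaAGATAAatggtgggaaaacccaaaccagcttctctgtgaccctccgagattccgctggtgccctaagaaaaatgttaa
The Pcp4 and Nox3 windows held none of the marked motifs, and the Gm29296 window held a FOX match. The window nearest to Prrx1 held a FOX match near its centre and a GATA match further off, the Sim1 window held matches to GATA, RUNX and TEAD, and in the Arl15 window the AP-1 and TEAD matches shared bases.

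MEF-alone regions had lower MEF scores than partly kept regions. Their MEF scores ran from 100 to 2486 with a median of 153, the number of tags at the summit (the pileup) ran from 4 to 66 with a median of 10, and the peaks were 55 to 2797 bp wide with a median of 261 bp. Each was a single MEF peak. Scores of at least 150 were reached by 6071 (51.8%), of at least 200 by 3529, of at least 500 by 298 and of at least 1000 by 10. Partly kept regions had a median score of 267 and a median pileup of 16. The selection used the score, so these values describe it and are not a result. Just below the limit, at scores of 95 to 100, there were 961 MEF regions with no peak in any other library, and just above it, at 100 to 105, there were 856, both with a median pileup of 8. Over all MEF regions of any score, 29.0% had no peak elsewhere.

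Few shared regions lacked a peak in every time-course library. Of the 40688 MEF regions with a score of at least 100 that were closed in ESCs, 28.8% had no peak in any of the 16 time-course libraries and are the MEF-alone regions, whereas of the shared regions 274 of 25332 (1.08%) had none. At scores of 100 to 150 the shares were 47.4% (46.5% to 48.3%) for regions closed in ESCs and 3.64% (3.06% to 4.3%) for shared regions. At scores of 200 to 300 they were 27.3% (26.3% to 28.3%) and 1.57% (1.19% to 2.03%). At 300 or more, 10.2% (9.71% to 10.7%) and 0.189% (0.126% to 0.271%), scores were not matched, with a median of 382 in MEF-alone, 517 in partly kept and 812 in shared regions. The selection used the MEF score and the peaks of the ESC and time-course libraries, so these shares describe it and are not a result. Intervals here and below cover counting error only, and since regions of 1 library are not replicates of MEFs, no test is given for them.

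**Figure D1:**
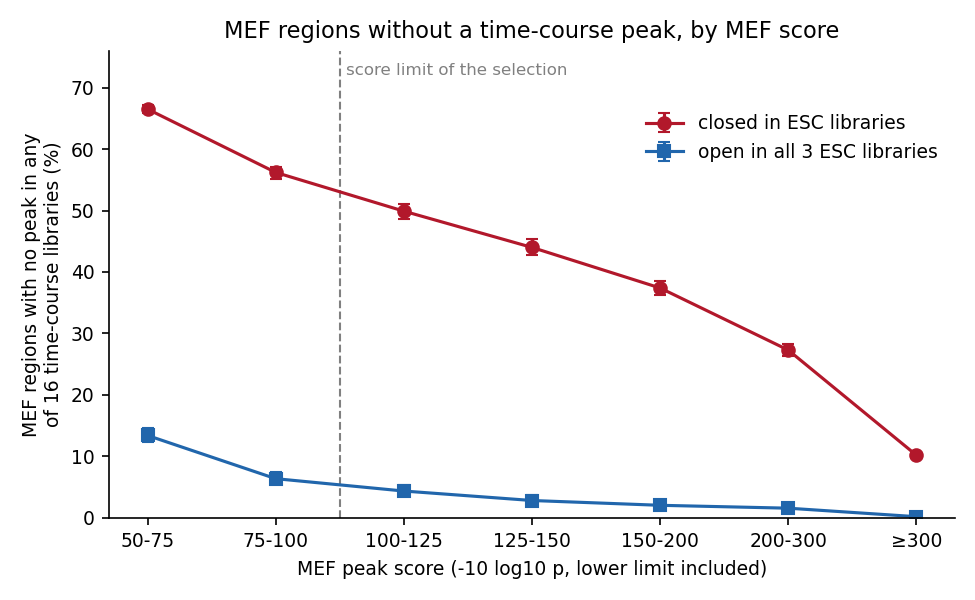
Share of MEF regions with no peak in any of the 16 time-course libraries (y axis, %) against the MEF peak score (x axis, -10 log10 p) for regions closed in all ESC libraries (circles) and open in all 3 (squares), with 95% exact intervals. From the class just above the score limit to the highest class the share fell from 49.9% to 10.2% in the first set and from 4.36% to 0.189% in the second.

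Detection in the time-course libraries bears on how a missing peak is read. The number of reads is unknown, so that depth can be judged by peak numbers and pileups alone. There were 125467 MEF peaks and 44126 to 107038 peaks in the time-course libraries. At regions open in every library the median pileup was 39 in MEFs, 16 in the Nanog and 24 in the NanogN70 day 0 library, and 60 in NanogN70 on day 3, which stood apart from the rest. Each time-course library had a peak at 76.4% to 91.3% of the shared regions. For regions closed in ESCs the shares were 47.9% on day 0 with Nanog and 51.7% with NanogN70, and they came to 9.4% and 5.06% on day 12. A MEF-alone region therefore had no peak above the threshold of each library, which does not show that it was closed, and the part of depth in these absences was not tested.

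The day 0 libraries decided the membership of many regions. With 11714 in no time-course library, the next largest set of MEF regions closed in ESCs was the 6459 with a peak in exactly 1 library, and in 2465 and 2095 of these the 1 library was NanogN70 or Nanog on day 0. A further 456 had their only peak in Nanog on day 8 and 369 in NanogN70 on day 3. In all, 8148 regions had a peak on day 0 in at least 1 path and in no later library, so that the number without a time-course peak was 19862 when both day 0 libraries were left out. Of the 15949 regions without a peak in either day 0 library, 4235 had one on a later day and 11714 had none. MEF score rose with the number of libraries that had a peak, from a median of 153 with none to 187 with 1, 293 with 4 and 606 with all 16.

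**Figure D2:**
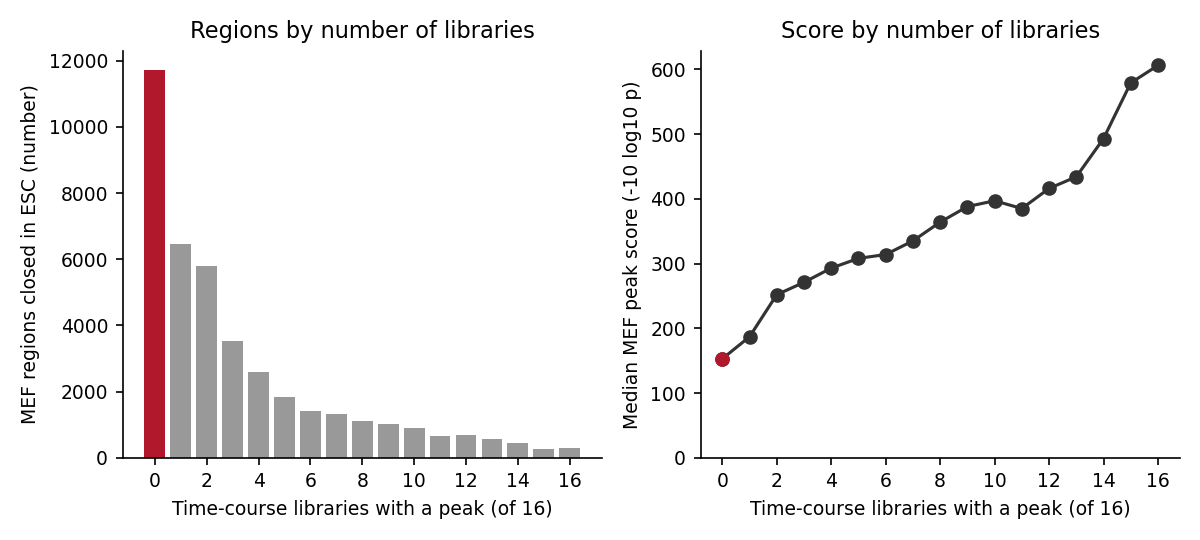
Left, number of MEF regions with a score of at least 100 and closed in ESCs (y axis) by the number of time-course libraries with a peak (x axis, 0 to 16), with the 11714 MEF-alone regions in red at 0. Right, median MEF peak score (-10 log10 p) of the same regions, which rose from 153 with no library to 606 with 16.

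The 12 MEF-alone regions with the highest scores lay for the most part in introns or between genes. The highest, with a score of 2486 and a pileup of 66, covered an exon of Pcp4, which encodes a calmodulin-binding peptide, at chr16:96525382-96525776, and its summit was 25.8 kb from the nearest start site of the gene. The second, with a score of 1361 and a pileup of 51, was an intergenic site at chr17:4173789-4174530, 478 kb from Nox3, and the closest region of another library was 363 bp away. The third (score 1287, pileup 38) lay at the start of the non-coding gene Gm29296 at chr7:51772258-51772877. These 3 peaks were each several times higher in score than the median MEF-alone region.

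The fourth region, at chr1:163208992-163209618 with a score of 1270 and a pileup of 36, lay 79.9 kb from the start of Prrx1, which encodes a homeobox factor of limb and craniofacial mesenchyme. Of the 11 MEF regions assigned to Prrx1 at a score of at least 100, 5 were MEF-alone and 6 partly kept, with none open in all ESC libraries. The Prrx1 promoter had a pileup of 14 in MEFs, 7 and 10 in Nanog on days 1 and 5, and 12 and 7 in NanogN70 on days 0 and 1, and no peak in the other 12 time-course libraries or in ESCs.

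Others of high score lay in introns of F630206G17Rik (score 1136), of Atxn1 (1109), which encodes ataxin-1, of Hdac9 (1031), which encodes a class IIa histone deacetylase, and of Fbln1 (1011), which encodes the matrix protein fibulin-1. Their pileups were 41, 51, 35 and 48. The Hdac9 and Fbln1 regions had an AP-1 motif within 25 bp of the summit. The remaining 4 were intergenic, nearest to Tspan11 (score 1022, pileup 60), Gm21897 (1006, 58), Tyw5 (988, 45) and Mat2b (985, 28), and the one nearest to Tyw5 was 10.5 kb from any region of another library. Of the 12 nearest genes, 10 had a promoter peak in MEFs, 9 had one in all 3 ESC libraries and 6 had one in all 16 time-course libraries.

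Of the MEF-alone regions, 357 lay within 1 kb of the start of a protein-coding gene. The highest-scoring of these was at Stxbp6 (score 959, pileup 28, chr12:45013066-45013793), which encodes the SNARE-binding protein amisyn. Then came Sh3kbp1 (735, 19), which encodes an adaptor of receptor endocytosis, Map3k20 (694, 31), which encodes a stress-activated kinase, and Abca8a (688, 25), which encodes an ABC transporter. At all 4 genes other libraries had peaks near a start that did not overlap this one. The closest region of another library was 2544 bp from this peak at Stxbp6, 4693 bp at Sh3kbp1, 421 bp at Map3k20 and 5621 bp at Abca8a. At Stxbp6, Sh3kbp1 and Abca8a the peaks of other libraries thus lay at another start of the gene. Within 1 kb of a start of Stxbp6, Sh3kbp1 or Map3k20 every time-course and ESC library had a peak. At Abca8a the ESC libraries had pileups of 5 to 7 and 2 time-course libraries had a peak. At Aknad1 (score 602), the alcohol dehydrogenase gene Adh4 (593) and Gm10320 (589) no other library had a peak within 1 kb of any start. The MEF pileups there, 27, 16 and 22, were those of the MEF-alone regions themselves, whose absence from other libraries was set by the selection. At BC067074 (526) the MEF pileup was 33 and 14 of the 16 time-course libraries had a peak within 1 kb of a start. The closest region of another library was 3946 bp from the MEF-alone region there.

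MEF-alone regions were distal. Promoters, taken as 1 kb around the start of a coding or long non-coding transcript, held 4.28% (3.92% to 4.66%) of them, against 6.21% (5.93% to 6.49%) of partly kept and 53.5% of shared regions. Introns held 45.9%, intergenic sequence 47.5% and other exons 2.31%, whereas the intergenic share was 40.7% in partly kept and 22.1% in shared regions. The median distance from the nearest protein-coding start was 47.1 kb, 30.4 kb and 0.823 kb in the 3 sets. A distance of over 50 kb was found for 48.7% (47.7% to 49.6%) of MEF-alone and 38.2% (37.6% to 38.7%) of partly kept regions. The shares were 47.3% and 36% at scores of 100 to 150 and 50.7% and 37.6% at 200 to 300.

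In base composition they were close to partly kept regions and unlike shared ones. The median GC content of the 201 bp around the summit was 45.8% in MEF-alone, 46.8% in partly kept and 58.2% in shared regions, and the mean number of CpG dinucleotides in this window was 2.03, 2.44 and 10.8. The summit lay in a masked repeat in 9.48% (8.95% to 10%) of MEF-alone regions and 7.39% of partly kept regions, and these shares were 9.39% (8.64% to 10.2%) and 9% (8.3% to 9.73%) at scores of 100 to 150 and 9.55% (8.83% to 10.3%) and 6.95% (6.62% to 7.29%) at 150 or more, where scores were not matched (medians of 216 and 339). By chromosome, MEF-alone regions made up from 13.1% (12.1% to 14.2%) of MEF regions on chromosome 7 and 13.2% (12.2% to 14.2%) on chromosome 11 to 20.7% (18.7% to 22.8%) on chromosome X, leaving out chromosome Y with 5 regions.

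AP-1 was the most frequent of the motifs described, but was less frequent in MEF-alone than in partly kept regions. It was found within 25 bp of the summit in 14.7% (14.1% to 15.4%) of MEF-alone, 20.6% (20.1% to 21.1%) of partly kept and 3.05% of shared regions, and in 12.6% of all MEF regions of this score. By score class MEF-alone and partly kept regions had 14.8% and 17.3% at 100 to 150, 14.7% and 19.3% at 150 to 200, and 14.8% and 21.8% at 200 to 300. The share in MEF-alone regions hardly moved with score while that in partly kept regions rose.

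TEAD motifs went the other way. They were found in 9.66% (9.14% to 10.2%) of MEF-alone, 8.78% (8.45% to 9.11%) of partly kept, 3.18% of shared and 6.84% of all MEF regions. The TEAD share was higher in MEF-alone than in partly kept regions in each score class, with intervals apart at 150 to 200 (10% to 12.5% and 7.53% to 9.21%) and over all scores of 150 or more (9.8% to 11.4% and 8.76% to 9.52%), where scores were not matched. They overlapped at 100 to 150 (7.98% to 9.47% and 6.84% to 8.16%), at 200 to 300 (8.91% to 11.6% and 7.7% to 9.2%) and at 300 or more (8.48% to 11.6% and 9.19% to 10.2%). By the number of time-course libraries with a peak, the TEAD share was 9.66% with none, 9.77% with 1, 10.7% with 2 or 3, 7.38% with 4 to 8 and 6.13% with 9 to 16. The AP-1 share over the same steps was 14.7%, 18.1%, 20.2%, 23.2% and 20.3%, and that of the E-box CAGCTG was 4.12%, 4.03%, 4.13%, 5.92% and 7.47%. TEAD matches were also less frequent with 9 to 16 libraries than with none within score classes, with 4.53% and 8.7% at 100 to 150, 4.33% and 10.8% at 150 to 300 and 7.09% and 9.96% at 300 or more, where scores were not matched. With 1 library and with 2 or 3, the TEAD shares were 8.21% and 9.02% at 100 to 150 and 10.4% and 9.7% at 150 to 300. At 300 or more they were 10.9% and 12.4%, above the share with none. For AP-1 the comparison of these steps differed by score. At scores of 100 to 150 its share was 14.8%, 17.8%, 18.3%, 15.9% and 14.9% over the 5 steps, and at 150 to 300 it was 14.7% (13.7% to 15.8%) with no library, 23.7% with 4 to 8 and 16.7% (14.6% to 18.9%) with 9 to 16. At 300 or more, which held 3131 of the 4860 regions with 9 to 16 libraries, AP-1 was at 14.2% (12.5% to 16.1%) with no library and 22.7% (21.2% to 24.2%) with 9 to 16.

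Among the motifs searched, GATA, IRF, FOX and STAT matches had the largest ratios to the share in all MEF regions, each found in few regions. GATA matches were found in 1.9% (1.66% to 2.16%) of MEF-alone and 1.26% of all MEF regions, a ratio of 1.5, IRF matches in 0.444% (0.332% to 0.582%) and 0.3%, a ratio of 1.48, and FOX matches in 0.751% (0.603% to 0.925%) and 0.518%, a ratio of 1.45, which STAT matches also had, with 0.307% (0.215% to 0.425%) and 0.212%. RUNX and TEAD were close behind, with ratios of 1.43 and 1.41. The ratio was 1.18 for CEBP, 1.15 for MEF2, 1.04 for SOX, 0.979 for the homeobox, 0.826 for OCT and 0.687 for TBX. Against partly kept regions, where GATA was at 1.5% (1.37% to 1.65%), IRF at 0.366% (0.3% to 0.442%), FOX at 0.542% (0.461% to 0.633%) and STAT at 0.214% (0.164% to 0.274%), the IRF, FOX and STAT intervals overlapped. Within score classes the GATA intervals overlapped as well, for example at 100 to 150 (1.56% to 2.29% and 1.23% to 1.85%) and 150 to 200 (1.53% to 2.67% and 1.18% to 1.94%). Those of FOX overlapped in the classes below 300 and were apart at 300 or more (0.83% to 2.08% and 0.468% to 0.74%), where scores were not matched. RUNX matches were found in 3% (2.7% to 3.32%) of MEF-alone and 2.8% (2.61% to 2.99%) of partly kept regions. Low in both sets and higher in shared regions were CTCF, with 0.692%, 0.825% and 5.02%, and ETS (CCGGAAG), with 0.171%, 0.262% and 2.58%. In a window of 75 bp on each side, 43.5% of MEF-alone and 37.1% of partly kept regions had none of AP-1, TEAD and RUNX, and 5.91% and 7.59% had both AP-1 and TEAD. A match is a description of the sequence and not evidence of binding.

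**Figure D3:**
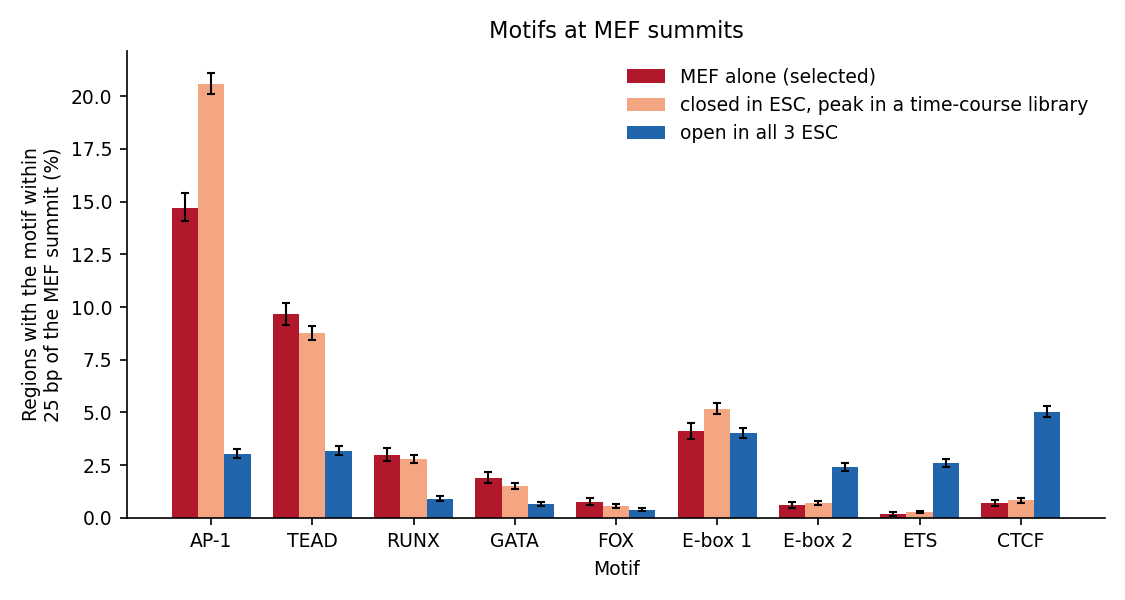
Share of regions with a motif within 25 bp of the MEF summit (y axis, %) for MEF-alone (red), partly kept (orange) and shared regions (blue), with 95% exact intervals. E-box 1 is CAGCTG and E-box 2 is CACCTG. AP-1 stood at 14.7% in MEF-alone and 20.6% in partly kept regions, and TEAD at 9.66% and 8.78%.

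From a MEF-alone region to the nearest other one on either side the median distance was 46.3 kb, against 15.7 kb among partly kept regions, of which there were more. Another region of the same kind lay within 10 kb for 20.3% and 38.2% of them. The nearest region with a peak in another library was 2.38 kb away at the median and within 250 bp for 13% of MEF-alone regions. For partly kept regions the nearest other such region was 1.5 kb away at the median and within 250 bp for 21.5%. From MEF-alone regions the nearest day 0 region was 6.51 kb away. The window of 100 kb with the most MEF-alone regions held 8, at scores of 102 to 983, among 11 MEF regions on chr13:63652409-63743678, and its nearest genes were Ercc6l2 and Ptch1, the latter encoding the Hedgehog receptor. Windows with 7 lay near Adamts5 (of 9 MEF regions, chr16:85999090-86094490), which encodes an aggrecan-cleaving protease, and near Bnc2 and Ccdc171 (of 11, chr4:83990131-84088605). Others with 7 lay near Gorab (of 10, chr1:163466104-163564201) and near Cdon and Rpusd4 (of 13, chr9:35307700-35405460). The windows were picked for their counts, and over all MEF regions of this score 16.6% were MEF-alone. None of these 5 windows held a protein-coding gene, and each also had 6 to 14 regions open in at least 1 time-course library.

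Of the MEF-alone regions, 7842 were within 100 kb of a protein-coding start and were assigned to the nearest gene. Of 16032 genes with at least 1 MEF region of this score, 4550 had at least 1 MEF-alone region, 763 had 3 or more and 7 had 10 or more. Ltbp1, which encodes a protein that holds latent TGF-beta in the matrix, had the most, with 14 of its 31 MEF regions, and these had scores of 105 to 361 with 12 of them inside the gene. Next were the kinase gene Mast4 (12 of 40), the phosphodiesterase gene Pde4d (12 of 62), Tcf4 (11 of 22), which encodes an E protein, the calcium channel gene Cacnb2 (10 of 21), Tnr (10 of 19), which encodes tenascin-R, Etv6 (10 of 22), which encodes an ETS repressor, Piezo2 (9 of 30), which encodes a mechanosensitive channel, Kalrn (9 of 37) and Mecom (9 of 28). Each of these genes is long, from 234 kb for Etv6 to 1504 kb for Pde4d. They were ranked by count and not by share. Over all protein-coding genes 13.5% of the assigned MEF regions were MEF-alone, and 26.2% of those closed in ESCs. Among regions closed in ESCs, Ltbp1 had 14 MEF-alone and 11 partly kept ones, and Pde4d had 12 and 33.

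The promoters of 9 of these 10 genes had a peak in every time-course and ESC library. At Ltbp1 the pileup was 64 in MEFs, 12 to 32 in the Nanog, 13 to 30 in the NanogN70 and 21 to 33 in the ESC libraries. Tnr was the exception, with 10 in MEFs and 11 to 25 in ESCs, peaks on 5 of 8 days in each path, and none on day 0 in either. A gene could therefore have up to 14 MEF-alone regions around a promoter that had a peak in all libraries, and such peaks do not measure expression.

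Only 4 genes held most of the MEF-alone regions of the cartilage and bone list, which had the largest share among the 18 gene lists. Over all protein-coding genes 13.5% (13.2% to 13.8%) of the assigned MEF regions were MEF-alone. For cartilage and bone genes it was 35 of 116 (30.2%, 22% to 39.4%), and these regions belonged to 9 of the 20 genes. Sox5 and Sox6, which encode cofactors of SOX9 in chondrocytes, had 6 and 7, and the cartilage collagen genes Col11a1 and Col9a1 had 7 and 6, so that these 4 genes held 26 of the 35. The other 16 genes of the list had 9 of 63 (14.3%, 6.75% to 25.4%), close to the share over all genes. Leaving out the 4 genes with the most such regions, an alternative chosen after seeing the data, lowers any list by its construction. Of the regions closed in ESCs, the only ones that can be MEF-alone, the list had 35 of 73 (47.9%, 36.1% to 60%), and 9 of 28 (32.1%, 15.9% to 52.4%) without the 4 genes, against 26.2% over all genes. Sox9 itself, the master factor of cartilage, had 1, with a score of 110. The highest scores on the list were 591 for a region 61.5 kb from Dlx6 at chr6:6801688-6802304, 495 for one 70.3 kb from Col11a1 and 489 for one in a Sox6 intron. Regions assigned to 1 gene are not independent of each other, and the genes of each list were few.

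Fibroblast lists were above the share over all genes when all MEF regions were counted, and close to it when only those closed in ESCs were. MEF-alone regions were 26 of 114 (22.8%, 15.5% to 31.6%) for fibroblast identity markers, 47 of 230 (20.4%, 15.4% to 26.2%) for fibroblast matrix genes and 53 of 270 (19.6%, 15.1% to 24.9%) for mesenchymal transcription factors, lists that share some genes. Of the regions closed in ESCs, they made up 29.2%, 27.5% and 29.9%, against 26.2% over all genes. Among them were a region 69.6 kb from Dcn (score 614), which encodes the proteoglycan decorin, regions 15 kb from Cd44 (651), which encodes the hyaluronan receptor, in an intron of Loxl1 (433), which encodes a collagen and elastin cross-linking enzyme, 23.9 kb from Col1a2 (350) and 37.8 kb from Col5a1 (338). Transcription factor genes with a MEF-alone region included Nfia (604, intronic), Tbx15 (578, 76.2 kb away) and Ebf1 (501, intronic). Most regions of these lists were not MEF-alone. Postn, Vim, Twist1 and Pdgfra had none, and Col1a1 had 4 beside 5 partly kept and 3 shared regions.

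Markers of other cell types gave 20 of 87 (23%, 14.6% to 33.2%) for endothelium, where 8 belonged to Erg and 3 each to Flt1 and Kdr, 11 of 53 (20.8%, 10.8% to 34.1%) for skeletal muscle, 9 of 45 (20%, 9.58% to 34.6%) for adipocytes and mesothelium and 7 of 37 (18.9%, 7.96% to 35.2%) for pericytes. Of 15 endothelial markers 11 had a promoter peak in MEFs, 11 to 12 in the ESC libraries and 7 to 8 in the time-course libraries. The intervals of the last 3 lists included the share over all genes. Of the regions closed in ESCs, the shares were 36.4% (23.8% to 50.4%) for endothelium, 44% (24.4% to 65.1%) for skeletal muscle, 34.6% (17.2% to 55.7%) for adipocytes and mesothelium and 31.8% (13.9% to 54.9%) for pericytes, and all 4 intervals included the 26.2% over all genes. When all MEF regions were counted, the interval also included the share over all genes for the TGF-beta pathway with 37 of 226 (16.4%), the neural lists with 14 of 97 (14.4%), TEAD and YAP genes with 16 of 121 (13.2%), AP-1 genes with 13 of 106 (12.3%), contractile genes with 14 regions (11.2%), leukocyte markers with 4 of 37 (10.8%), epithelial markers with 5 of 54 (9.26%) and Hox genes with 5 of 64 (7.81%). Hepatocyte and erythroid markers had 0 of 15, which allows a share of up to 21.8%. Whether cells of other types in the MEF culture gave some of these regions was not tested.

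Pluripotency genes had 6 MEF-alone regions among 39 (15.4%, 5.86% to 30.5%), against 13.5% over all genes. Of their 14 regions closed in ESCs these were 42.9% (17.7% to 71.1%), an interval that included the 26.2% over all genes. The highest-scoring lay 23.5 kb from Tbx3 (score 362), in an intron of Tfcp2l1 (356), 42.9 kb from Klf4 (284) and 0.285 kb from the start of Dppa2 (163). The Dppa2 promoter had a pileup of 9 in MEFs and 37 to 47 in ESCs and no peak in the time course. Peaks of MEFs and ESCs did not overlap at this start, and the MEF-alone region there was 132 bp from the nearest region of another library. A similar case among leukocyte markers was Laptm5, where the MEF-alone region (223) was 0.063 kb from a start. Within 1 kb of a start of Laptm5 the NanogN70 day 3 library had a pileup of 76, and ESC replicates 1 and 2 had 12 and 14.

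**Figure D4:**
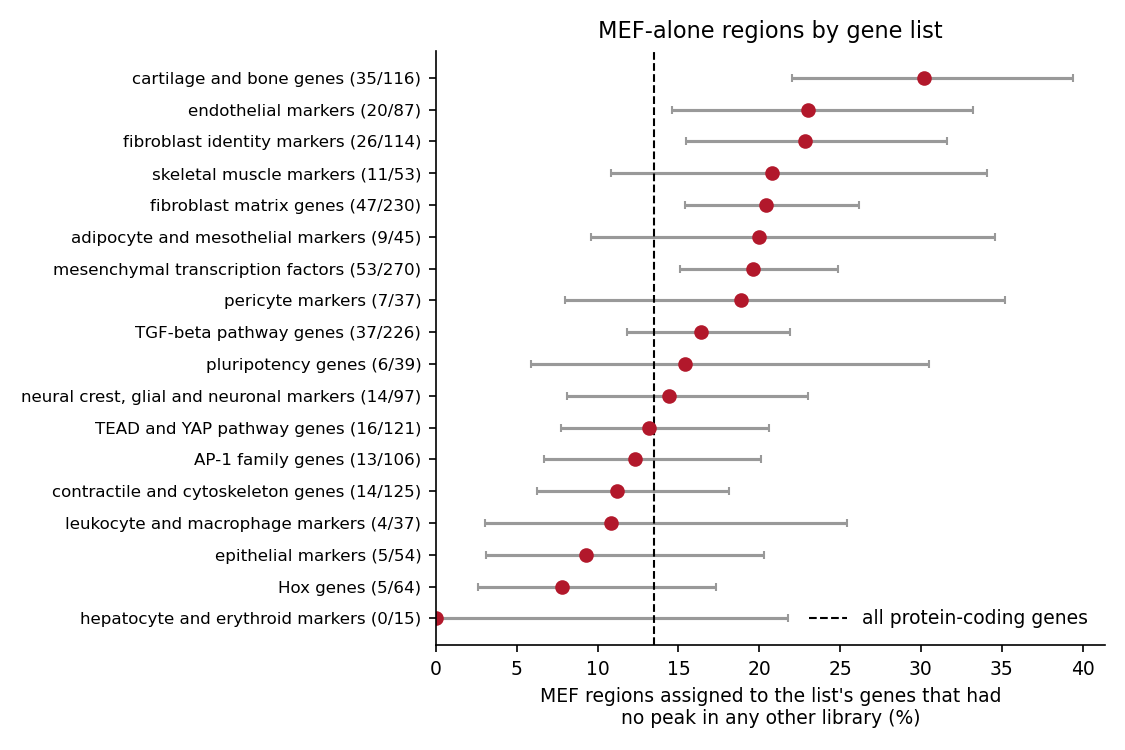
Share of MEF regions with a score of at least 100, assigned to the genes of each list, that were MEF-alone (x axis, %), with 95% exact intervals and the counts in brackets. The dashed line is the share over all protein-coding genes (13.5%), and cartilage and bone genes stood highest at 30.2%, or 14.3% without the 4 genes that had the most MEF-alone regions.

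To describe the surroundings of MEF-alone regions in the 2 paths, other MEF regions closed in ESCs, of any score, were split into 30743 within 50 kb of a MEF-alone region and 32151 further away. Those with a score of at least 100 had a peak in at least 1 time-course library by the selection, which used these same peaks, so the shares are a description and no test is given. Near MEF-alone regions the share with a peak was 36.3%, 22.1%, 15.6%, 17.4%, 18.1%, 23.4%, 13.3% and 7.79% from day 0 to day 12 with Nanog. With NanogN70 it was 42.7%, 19.4%, 12.8%, 11.1%, 10.9%, 8.45%, 3.43% and 4.84%. NanogN70 was higher on day 0 and lower on the 7 later days. Averaged over days, the share was 14.20% for NanogN70 and 19.26% for Nanog, a difference of -5.06 points (SD of the daily differences 6.24, 8 days). Far from MEF-alone regions the difference was -5.01 points (SD 6.08). The difference between near and far was -0.05 points (SD 0.397), above 0 on 4 of 8 days. It was 0.80 points when near was taken as within 10 kb. Without day 0 the difference near MEF-alone regions was -6.69 points and that far from them -6.63 points. When peaks of the libraries other than MEF counted only from a score of 100, the differences were -1.66 and -1.33 points. This setting gave 21898 MEF-alone regions, so the near and far sets were not the same as above. Each path was followed once, so its days are not replicates.

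**Figure D5:**
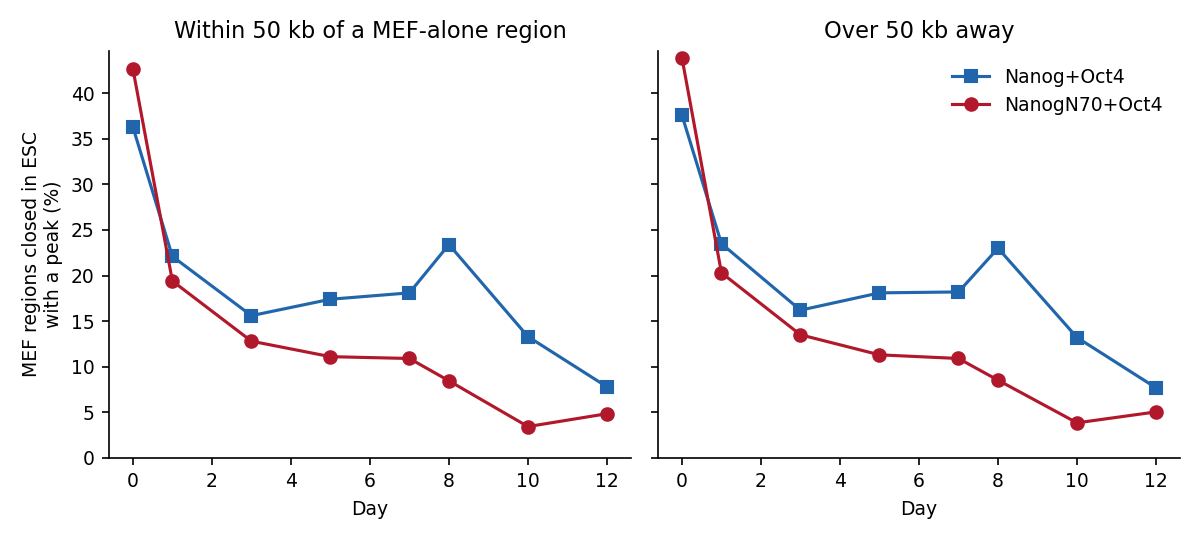
Share of MEF regions closed in ESCs that had a peak (y axis, %) by day (x axis) for Nanog+Oct4 (squares) and NanogN70+Oct4 (circles), within 50 kb of a MEF-alone region (left) and further away (right); each point is 1 library. In both panels NanogN70 was above Nanog on day 0 and below it on each later day, with 3.43% against 13.3% on day 10 near MEF-alone regions.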

How the data were processed

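ATAC-seq peaks of 20 libraries were analysed. Per the labels and the study's methods, the authors trimmed reads with Trim Galore 0.6.4, aligned them to mm10 with Bowtie2 2.4.5, filtered them with SAMtools 1.16.1 and called peaks in each library with MACS 1.4.2. The deposited peak score is 10 times the negative base-10 logarithm of the p-value (lowest score 50), and the deposited summit signal is a coverage pileup in tags that is not scaled to depth. Depth is unknown, since read numbers are not given in the sources used, and intervals cover counting error only.

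Peaks were merged and classed in Python 3.11.15 (pandas 2.3.3, numpy 2.4.6, SciPy 1.17.1). Annotation was GENCODE M21 on GRCm38, the assembly that UCSC names mm10, and peak ends fitted the reference lengths of all 21 chromosomes. There were 14 other sequence names, used for counts and distances but not for annotation or motifs, with 1 MEF-alone region. A promoter is within 1 kb of a start. Motifs (28 consensus sequences) were searched on both strands, and masked repeats were those in lower case in the RefSeq sequence. The procedure was tested on simulated data. Paths were compared by the mean of the 8 daily differences. A permutation test of these means was run as planned, but its p-values are left out, since the selection used the same time-course peaks. The members and gene lists were chosen with earlier results of these data known. Named items followed a rule, namely the 12 highest-scoring regions, the 8 highest at protein-coding promoters, the 5 densest windows of 100 kb, the 10 genes with the most regions and up to 4 top regions per list. Alternatives varied the score limits, overlap, distances, windows and libraries used.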

Additional observations from a re-analysis of the deposited data

How the results depend on the processing

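The number of MEF-alone regions depended on the score limits. It was 17954 with a MEF score of at least 75, 6071 with 150 and 3529 with 200, and 21898 when peaks of the other libraries counted only from a score of 100. Leaving out both libraries of 1 day or NanogN70 day 3 gave 11802 to 19862, the highest without day 0, and leaving out 1 ESC library gave 11756 to 11831. It was 10279 when a peak within 250 bp counted as open, 16785 when at least 50% of the MEF peak had to be covered, 16900 without the Nanog and 15565 without the NanogN70 libraries.

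The AP-1 share of MEF-alone regions was 15.7% in the score class just below 150, 34% within 75 bp and 16.4% with the limit of 100 in all libraries, and below that of partly kept regions in all 7 alternatives. The TEAD share was 10.6% from a score of 150, 9.09% and 8.09% in the lower and upper class of scores under 150, 11.2% at 150 to 200, and 23.9% within 75 bp, and above that of partly kept regions in all 7. The promoter share was 7.22% within 2 kb, against 10.1% of partly kept regions.

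For regions with a MEF score of at least 100, which by the selection had a peak in the time course, NanogN70 minus Nanog was -10.39 points near and -10.33 points far from MEF-alone regions, values that carry no test. Leaving out 1 day gave -6.69 to -3.65 points near and -6.63 to -3.66 far, the first of each without day 0. Near minus far was 0.80 points at 10 kb and -0.13 to 0.02 points with 1 day left out, with 0.01 without day 8 and 0.02 without day 10 being above 0. The cause of these changes was not tested. No paired analysis by replicate was possible because replicate numbers are given for the ESC libraries alone, and the paths were paired by day. With 1 MEF library of unknown depth, neither the spread of MEF peaks between cultures nor accessibility below the peak threshold could be measured.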
